A study of Rattus norvegicus with 5 samples.

Results

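The 9 genes described here are *Cx3cr1*, *Csf1r*, *P2ry12*, *C1qa*, *C1qb*, *C1qc*, *Tmem119*, *Ctss* and *Trem2*, which mark microglia of the resting brain or encode the first component of complement. They were taken by name from the 32883 genes of the deposited count tables, each matching 1 gene identifier, and were followed in the nuclei of 5 rats. The tissue was the ventral tegmental area (VTA), a midbrain region with dopamine and GABA neurons, punched bilaterally from flash-frozen brains of adult male Sprague-Dawley rats, with both punches of a rat combined. Each rat gave 1 library of single nuclei, prepared with the 10x Genomics 3′ v3.1 assay, in which every captured RNA molecule counts as 1 unique molecular identifier (UMI). The labels give saline as the treatment of all 5 rats and no second group, so the comparisons are between cell types within rats, and the rat is the replicate.

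Microglia are the resident macrophages of the brain. They depend on CSF1R, the receptor for CSF1 and IL34, they read the neuronal chemokine CX3CL1 through CX3CR1 and ADP through P2RY12, and TREM2 passes lipid signals through the adaptor TYROBP. C1QA, C1QB and C1QC form the recognition molecule C1q, which starts the classical complement cascade and tags synapses and debris. TMEM119 is a membrane protein used to tell microglia from other macrophages, and CTSS (cathepsin S) is a lysosomal and secreted cysteine protease. These assignments are textbook background and not results of these data.

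The promoters of 6 of the 9 genes were matched by symbol in RefSeq (GRCr8), from 250 bases before to 50 bases after the annotated start, and 4 are printed here since the results turn on how *C1qa* and *C1qb* differ from *Cx3cr1* and *Ctss*. Capitals mark matches on either strand to AGGAAGT, the core letters of the site of PU.1 (the myeloid factor encoded by *Spi1*), or to TATAAA. *Cx3cr1* lies at chr8:128677017-128677316, minus strand, *C1qa* at chr5:154419884-154420183, minus strand, *C1qb* at chr5:154407778-154408077, minus strand and *Ctss* at chr2:185775146-185775445, plus strand. In RefSeq order, *C1qb*, *C1qc* and *C1qa* are direct neighbours among protein-coding genes.
Cx3cr1: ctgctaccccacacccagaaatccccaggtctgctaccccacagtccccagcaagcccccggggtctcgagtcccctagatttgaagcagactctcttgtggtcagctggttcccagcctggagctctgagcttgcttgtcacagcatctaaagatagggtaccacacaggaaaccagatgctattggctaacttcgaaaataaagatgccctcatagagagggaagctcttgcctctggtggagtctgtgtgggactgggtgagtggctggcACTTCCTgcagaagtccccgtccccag
C1qa: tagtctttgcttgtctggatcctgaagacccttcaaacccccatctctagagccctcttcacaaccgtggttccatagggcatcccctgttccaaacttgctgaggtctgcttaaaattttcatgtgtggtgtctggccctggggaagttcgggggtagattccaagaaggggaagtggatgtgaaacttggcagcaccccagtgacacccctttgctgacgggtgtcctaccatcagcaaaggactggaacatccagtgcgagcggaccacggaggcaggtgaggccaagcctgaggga
C1qb: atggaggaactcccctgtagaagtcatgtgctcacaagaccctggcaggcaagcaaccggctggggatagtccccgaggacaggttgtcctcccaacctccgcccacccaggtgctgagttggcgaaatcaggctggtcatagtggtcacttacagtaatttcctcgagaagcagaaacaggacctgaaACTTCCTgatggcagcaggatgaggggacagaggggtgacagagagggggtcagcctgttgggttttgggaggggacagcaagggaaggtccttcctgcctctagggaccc
Ctss: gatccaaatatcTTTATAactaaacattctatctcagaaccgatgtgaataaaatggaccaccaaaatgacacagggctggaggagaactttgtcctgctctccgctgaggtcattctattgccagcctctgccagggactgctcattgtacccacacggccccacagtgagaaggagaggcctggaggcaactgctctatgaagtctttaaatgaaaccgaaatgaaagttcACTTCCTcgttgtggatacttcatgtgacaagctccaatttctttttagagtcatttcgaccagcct
Of the 6 promoters, 3 held AGGAAGT, those of *Cx3cr1*, *C1qb* and *Ctss*, against 8.41% of all 33469 promoters of this length. The letters TATAAA were found in 1 of the 6, that of *Ctss*, against 14.2% of all promoters, and the AP-1 letters TGANTCA in 1, that of *Trem2* (not printed), against 7.33%. A match is a run of letters in this window and not a measured site.

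The libraries held 10193355 to 88576210 UMIs, and 35234 barcodes passed the filters (at least 600 UMIs, more than 200 and fewer than 5000 genes and under 5% mitochondrial UMIs), 2733 to 18927 per rat. The mitochondrial limit removed 4801, 18183, 74, 183 and 1375 of the 7818, 37436, 4025, 5704 and 6003 barcodes with at least 600 UMIs in rats 1 to 5. Libraries shared 2 to 27 of the passing barcodes in pairs. Clusters were made within each library without the 9 genes and without the 84 genes of the lists used below. They were named from separate markers, which left 19099 typed nuclei. Set aside were 14370 barcodes in mixed, shallow or weakly marked clusters and 1765 marked as doublets. Of the 14370, 11328 came from rat 2, at a median of 710 UMIs, near the limit of 600. The microglia-like nuclei numbered 36, 343, 86, 137 and 108 in rats 1 to 5, 710 in all, and held a median of 1164 to 2603 UMIs. All 10 markers that named them (*Inpp5d*, *Lyn*, *Runx1* and others) were present in each rat, at a summed level of 81.8, 43.6, 21.6, 83.2 and 82.2 UMIs per 10000. Rat 3 stood apart, as its microglia-like nuclei had the lowest level of their own markers and the lowest median depth, so means are also given without it. Markers of oligodendrocytes (6 genes, *Mog* and others) summed to 33.7, 73.8, 50.5, 41.3 and 37.2 in the same nuclei, more than the microglia markers in rats 2 and 3, against 130.3 to 237 in oligodendrocytes. Markers of neurons (6 genes) summed to 12.8, 18.7, 17.3, 7.71 and 10.8 there, against 40.6 to 70 in neurons, with rat 3 at 17.3 against 40.6. The part of RNA of other types in the levels below was not tested. Markers of border macrophages (7 genes, *Mrc1* and others) summed to 0.0721, 1.24, 1.28, 3.45 and 0.211 there, with 1 to 7 of the 7 detected. Markers of lymphocytes (9 genes, *Skap1* and others) summed to 0.504, 1.7, 0.64, 3.06 and 7.22. *Skap1* stood at 2.22 in rat 4 and 2.7 in rat 5 and *Ighm* at 3.08 in rat 5, while *Ms4a1* was at 0 in every rat. Without the nuclei that held a UMI of either list, the summed level of the 9 genes was 35.4 UMIs per 10000, against 35.5 with them.

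All 9 genes were higher in microglia-like nuclei than in the other typed nuclei of the same rats. *Cx3cr1* had the largest difference and *P2ry12* the smallest, though *C1qb*, *C1qc*, *Trem2* and *C1qa* (log2 folds of 5.32 to 5.62) lay within 1 SE of *P2ry12*. In every rat each gene's microglial level lay above its level in every rat's other nuclei. How many of all genes lay apart in this way was not counted, so this is only a description. Since clusters group nuclei by genes that vary together, a higher level of genes known from microglia was built into the grouping in part, and the size of each difference is what the comparison adds. *Tmem119*, *P2ry12*, *Cx3cr1* and *Trem2* were also rare in the other nuclei (means of 0.0079, 0.0106, 0.014 and 0.021 UMIs per 10000). They could pass the filter on low counts mainly through microglia-like nuclei, so the count of 9 is only a description. Of 13978 genes tested, 12.1% were called higher in microglia-like nuclei and 18.7% lower (edgeR quasi-likelihood test on counts summed per rat, rat as a block, Benjamini-Hochberg adjusted p under 0.05). Levels are UMIs of a gene per 10000 UMIs of all genes, listed for rats 1 to 5 with the mean ± SD (n = 5 rats).

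**Figure D1:**
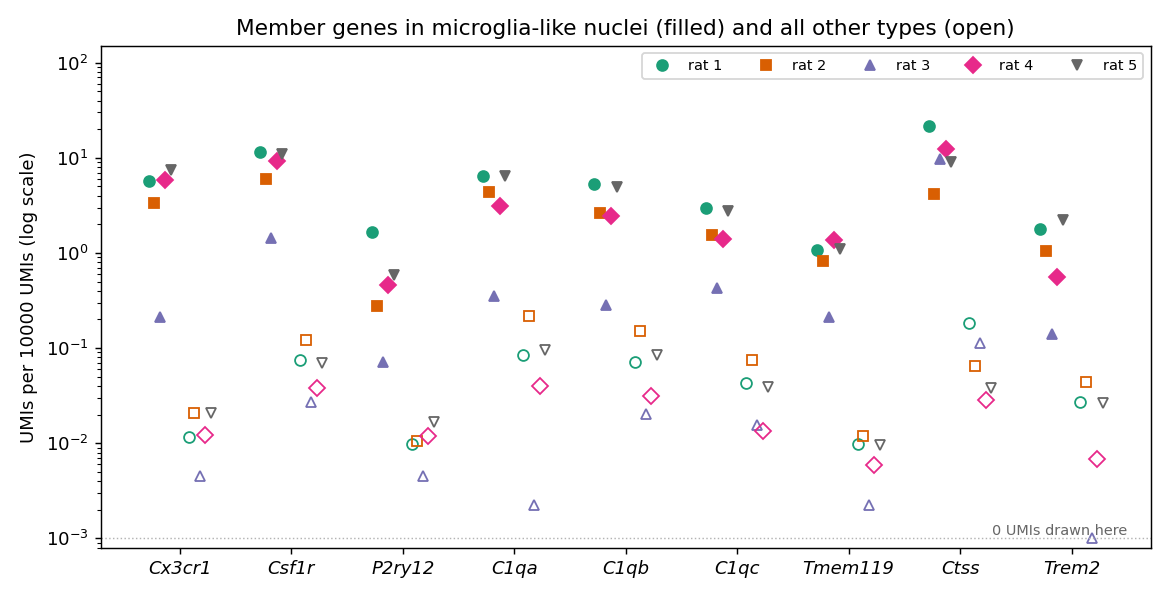
Level of each of the 9 genes in microglia-like nuclei (filled) and in all other typed nuclei (open), as UMIs per 10000 UMIs on a log axis, with 1 symbol per rat. For each gene the filled symbols of all 5 rats lie above all open ones, and how many of all genes do so was not counted. The filled symbol of rat 3 is the lowest for every gene but *Ctss*, where rat 2 is lowest.

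Among the receptors, *Csf1r* stood at 11.5, 6.05, 1.42, 9.28 and 10.8 in microglia-like nuclei (7.83 ± 4.16) and at 0.0742, 0.122, 0.027, 0.0386 and 0.0692 in all other types. Its log2 fold difference was 6.72 ± 0.34 (SE), adjusted p = 2.05e-14 in the edgeR test, and its mean without rat 3 was 9.43 ± 2.44 (SD, n = 4). *Cx3cr1* stood at 5.69, 3.37, 0.213, 5.82 and 7.39 (4.5 ± 2.79), against 0.0117, 0.0206, 0.0045, 0.0124 and 0.0208 elsewhere. The low value of rat 3 rested on 3 *Cx3cr1* UMIs (95% exact Poisson interval 0.044 to 0.624), far below the other 4 rats, whose mean was 5.57 ± 1.66 (SD, n = 4). The log2 fold difference of *Cx3cr1* was 8.11 ± 0.33 (SE), adjusted p = 5.44e-16.

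*P2ry12*, the ADP receptor by which microglial processes move towards injury, was sparse in these nuclei. It gave 23, 26, 1, 21 and 14 UMIs in the microglia-like nuclei of rats 1 to 5, or 1.66, 0.278, 0.0711, 0.456 and 0.591 per 10000 (0.611 ± 0.617), with rat 1 highest. In all other types together it gave 5, 28, 2, 24 and 24 UMIs, so that a mean of 49.4% ± 19.3 (SD, n = 5) of its typed UMIs lay in microglia-like nuclei, against 83% ± 13.3 for *Cx3cr1*. Its log2 fold difference was 5.28 ± 0.41 (SE), adjusted p = 8.56e-11, and its mean level was 0.746 ± 0.621 without rat 3 and 0.349 ± 0.225 without rat 1 (SD, n = 4), so that rat 1 carried much of it. *Trem2* stood at 1.8, 1.05, 0.142, 0.565 and 2.24 (1.16 ± 0.862), against 0.0273, 0.0446, 0, 0.00692 and 0.0263 elsewhere. Rat 3 had 2 *Trem2* UMIs in microglia-like nuclei and 0 in 3325 other nuclei. The log2 fold difference was 5.61 ± 0.32 (SE), adjusted p = 2.83e-13. Without rat 3 the mean *Trem2* level was 1.41 ± 0.749 (SD, n = 4).

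The 3 C1q genes moved together over the rats, high in rats 1 and 5, intermediate in rats 2 and 4 and low in rat 3. *C1qa* stood at 6.41, 4.42, 0.356, 3.11 and 6.46 in microglia-like nuclei (4.15 ± 2.55) and at 0.0839, 0.217, 0.00225, 0.04 and 0.0955 in all other types. *C1qb* stood at 5.33, 2.62, 0.285, 2.48 and 4.98 (3.14 ± 2.07), against 0.0722, 0.15, 0.0203, 0.0316 and 0.0844. *C1qc* stood at 2.95, 1.53, 0.427, 1.39 and 2.79 (1.82 ± 1.05), against 0.0429, 0.0757, 0.0158, 0.0133 and 0.0394. Outside microglia all 3 were highest in rat 2, as was *Csf1r*, and lowest in rat 3 or rat 4. The log2 fold differences were 5.62 ± 0.30 (SE), adjusted p = 6.37e-14 for *C1qa*, 5.32 ± 0.32 (SE), adjusted p = 5.87e-13 for *C1qb*, and 5.50 ± 0.31 (SE), adjusted p = 1.74e-13 for *C1qc*. With rat 3 left out, the mean levels in microglia-like nuclei were 5.1 ± 1.63 for *C1qa*, 3.85 ± 1.51 for *C1qb* and 2.16 ± 0.82 for *C1qc* (SD, n = 4).

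*Tmem119* varied least among the rats relative to its mean, at 1.08, 0.823, 0.213, 1.37 and 1.1 (0.917 ± 0.438), and stood at 0.00976, 0.012, 0.00225, 0.00593 and 0.00968 elsewhere. Its log2 fold difference was 6.70 ± 0.33 (SE), adjusted p = 1.16e-14. *Ctss* went its own way. It stood at 21.8, 4.16, 9.67, 12.4 and 8.99 (11.4 ± 6.54), highest in rat 1 and lowest in rat 2, so that rat 3, lowest for the other 8 genes, was the third highest for *Ctss*. In all other types *Ctss* stood at 0.182, 0.0652, 0.113, 0.0282 and 0.038, highest in rats 1 and 3. Its log2 fold difference was 7.00 ± 0.36 (SE), adjusted p = 3.24e-14. Without rat 3 the mean levels were 1.09 ± 0.223 for *Tmem119* and 11.8 ± 7.47 for *Ctss* (SD, n = 4). Among the UMIs of the 9 genes in microglia-like nuclei, *Ctss* made up 37.5, 17.1, 75.6, 33.6 and 19.8% in rats 1 to 5, with a 95% exact binomial interval of 68.6 to 81.6% in rat 3 and 15.6 to 18.7% in rat 2. These intervals cover counting error within a library only and do not measure a difference between rats. The libraries differed in depth and each held 1 rat, so rat and library cannot be told apart.

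Microglia-like nuclei were 710 of the 19099 typed nuclei, and their share of a gene's typed UMIs was far above their share of nuclei for all 9 genes. The mean share of a gene's typed UMIs was 83% ± 13.3 for *Cx3cr1* (SD, n = 5), 77.8% ± 8.27 for *Ctss*, 73.9% ± 6.97 for *Tmem119*, 72.7% ± 9.94 for *Csf1r*, 66.5% ± 20.3 for *Trem2*, 61.8% ± 15.7 for *C1qa* and 55.3% ± 12.2 for *C1qc*. It was 49.7% ± 15.7 for *C1qb* and, as given above, 49.4% for *P2ry12*. Rat 3 entered these means with few UMIs, such as 1 of 3 for *P2ry12*, 4 of 13 for *C1qb* and 2 of 2 for *Trem2*. Without it the mean shares were 88.7% for *Cx3cr1*, 79% for *Ctss*, 75.2% for *Csf1r*, 73.7% for *Tmem119*, 58.1% for *Trem2*, 57.6% for *C1qc*, 56.4% for *C1qa*, 54.5% for *C1qb* and 53.4% for *P2ry12*. With the UMIs of all rats pooled, in which rat 2 weighs most, the shares ranged from 46.8% (*C1qb*) and 48.8% (*C1qa*) to 87.7% (*Cx3cr1*), and *P2ry12* stood at 50.6%. By rat, the share was 67.4, 41.6, 83.3, 63.8 and 52.6% for *C1qa* and 80.8, 63.5, 62.5, 84.6 and 72% for *Csf1r*. The remaining UMIs lay in nuclei of the other 5 types, and among these rat 2, with the most nuclei, held the most for every gene.

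Between genes, *Ctss* had the highest level per 10000 UMIs, and per kilobase of the RefSeq gene span *C1qa* led with 1.46 ± 0.896 UMIs per 10000 (SD, n = 5). It was followed by *C1qb* (0.565 ± 0.372), *C1qc* (0.54 ± 0.313), *Ctss* (0.405 ± 0.233), *Csf1r* (0.294 ± 0.156) and *Cx3cr1* (0.253 ± 0.157). *Trem2* (0.176 ± 0.131), *Tmem119* (0.13 ± 0.0621) and *P2ry12* (0.0146 ± 0.0148) came last. Neighbours in this order lay within 1 SD of each other, apart from *Tmem119* and *P2ry12*. The spans are 2.848 kb for *C1qa*, 28.125 kb for *Ctss* and 41.708 kb for *P2ry12*. As the assay reads the 3′ end, the number of UMIs need not grow with the span, and this order is set in large part by the spans.

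Most microglia-like nuclei held UMIs of several of the 9 genes, except in rat 3. The median number of genes detected per nucleus was 6, 4, 1, 5 and 5 in rats 1 to 5, and 5.56, 6.71, 20.9, 0 and 7.41% of the nuclei held none. *Ctss* was detected in 77.4% ± 15.4 of microglia-like nuclei (SD, n = 5), *Csf1r* in 68.6% ± 28.2, *Cx3cr1* in 53.9% ± 30.3, *C1qa* in 53.8% ± 28.4, *C1qb* in 44.9% ± 23.9 and *C1qc* in 34.4% ± 19.5. *Trem2* was detected in 22.4% ± 14.3, *Tmem119* in 21.7% ± 12.2 and *P2ry12* in 16.9% ± 17.8. By rat, *Csf1r* was detected in 83.3, 68.2, 20.9, 93.4 and 76.9%, *C1qa* in 77.8, 60.9, 4.65, 59.1 and 66.7% and *P2ry12* in 47.2, 7.58, 1.16, 15.3 and 13%, so that rats 1 and 4 led for *Csf1r*, rat 1 alone for *P2ry12* (mean without it 9.26%), and rat 3 was lowest for each. Oligodendrocytes, which should lack these genes, held a UMI of *C1qa* in 4.32, 6.75, 0.121, 1.83 and 2.75% and of *Cx3cr1* in 0.959, 0.524, 0.121, 0.466 and 0.305% of nuclei, at median depths of 791.5 to 5844 UMIs. In rat 3, *Cx3cr1* was detected in 3 of 86 microglia-like nuclei (3.49%, 95% exact binomial interval 0.725 to 9.86%) and *C1qa* in 4. All intervals cover counting error only.

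Detection rises with depth, and with every nucleus thinned to 600 UMIs the median share over the 9 genes fell from 44.9% to 16.7%. At that equal depth *C1qa* was detected in 38.9, 27.4, 2.33, 21.9 and 38.9% of microglia-like nuclei and *Ctss* in 69.4, 23, 53.5, 49.6 and 37%. In all other types, thinned *C1qa* detection was 0.831, 1.65, 0.0301, 0.26 and 0.922%. At equal depth rat 3 was the lowest of the rats for *C1qa* and, after rat 1, the highest for *Ctss*. A UMI of at least 1 C1q gene was present in 526 of 710 microglia-like nuclei (74.1%), and of all 3 in 99 (13.9%). Over all rats pooled, nuclei with *C1qa* held *C1qb* in 55.1% of cases and nuclei without it in 30.4%. The share was higher with *C1qa* in rats 1, 2 and 5 but lower in rat 4 (50.6% against 55.4%) and in rat 3 (0% against 4.88%). The pooled median depths also differed, 2226.5 against 1645 UMIs, and after thinning the pooled shares were 28.6% and 13.1%. At that equal depth rat 4 no longer had the lower share with *C1qa* (20% against 18.7%). As the rats differ in their C1q levels, the pooled shares are only a description.

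Outside microglia, the order of types was alike for most of the genes. Vascular nuclei had the highest mean level of 8 of the 9 genes, all but *P2ry12*, and astrocytes came next for each of these 8. For *C1qc* the vascular level was 0.24 ± 0.108 UMIs per 10000 and that of astrocytes 0.0536 ± 0.0528 (SD, n = 5), a gap larger than the SD of either. Every other pair of neighbours among the 5 non-microglial types lay within the larger of their SDs, for all 9 genes. The gap from microglia-like nuclei to the next type exceeded that SD for all genes but *P2ry12*, whose high SD came from rat 1. *P2ry12* was highest in oligodendrocyte precursor cells (OPCs) and neurons, at 0.0189 ± 0.0238 and 0.0147 ± 0.00792, and the 540 vascular nuclei held 1 *P2ry12* UMI in all. In neurons *C1qa* stood at 0.115, 0.132, 0, 0.016 and 0.0668 in rats 1 to 5, in oligodendrocytes at 0.0719, 0.231, 0.0133, 0.0555 and 0.107 and in astrocytes at 0.131, 0.463, 0, 0.0185 and 0.166, so that the 3 types shared the order of the rats in part, with rat 2 high and rat 3 low.

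Against the mean of the other non-microglial types, 6 of the 9 genes were called higher in vascular nuclei, where 17.8% of the 12163 genes tested were called higher and 18.9% lower. *C1qc* was higher by 2.40 ± 0.44 on the log2 scale (SE, adjusted p = 4.69e-05, edgeR quasi-likelihood test), *Csf1r* by 1.68 ± 0.44 (adjusted p = 0.00277) and *Ctss* by 1.66 ± 0.56 (adjusted p = 0.0201). *C1qa*, *C1qb* and *Trem2* were higher by 1.54, 1.49 and 1.42 (adjusted p = 0.00194, 0.0064 and 0.0267). Vascular nuclei held 2, 31, 1, 4 and 4 *C1qc* UMIs in rats 1 to 5 and 0, 51, 0, 4 and 13 *C1qa* UMIs, most of them in rat 2, without which 4 of the 9 genes were called. With no rat block 8 genes were tested and 3 called, and the folds of those lost stayed near their size (*C1qa* 1.66, *Ctss* 1.57 and *Trem2* 1.66, lowest adjusted p = 0.0753). When single nuclei were typed from their own marker UMIs, 1 was called and the folds were smaller (*C1qa* 0.87, *C1qb* 0.84, *Csf1r* 0.86, *Ctss* 1.05 and *Trem2* 0.80).

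Other markers moved with this result. The 10 microglia markers summed to 1.58, 2.98, 3.18, 5.51 and 1.61 UMIs per 10000 in vascular nuclei against 0.28 to 1.51 in neurons, oligodendrocytes and astrocytes and 3.73 to 4.16 in OPCs. The 7 border macrophage markers summed to 0.158, 0.486, 8.3, 1.01 and 0.511, with 1 to 7 of them detected. Vascular nuclei without a border macrophage marker UMI held the C1q genes at 0.273, 1.41, 0, 0.566 and 0.686 UMIs per 10000, against 0.198, 0.409, 0.0365, 0.0811 and 0.204 in neurons, oligodendrocytes, OPCs and astrocytes together, higher in 4 of 5 rats. Vascular nuclei with such a UMI (2, 13, 7, 2 and 8 nuclei) held them at 0, 2.87, 1.19, 3.99 and 3.33, above those without in every rat but rat 1. In these nuclei the value of rat 3 rested on 1 *C1qc* UMI and that of rat 4 on 1 UMI each of *C1qa* and *C1qc*. In nuclei without such a UMI, rat 1 held 1 *C1qb* and 2 *C1qc* UMIs. Both orders thus rest on very few UMIs in rats 1, 3 and 4. Vascular nuclei had median depths of 960 to 3794 UMIs, the lowest of the non-microglial types in rats 2, 4 and 5. With nuclei of at least 1000 UMIs 7 of the 9 genes were called higher in vascular nuclei, and with free RNA subtracted 6. The subtraction took the profile of barcodes of 10 to 99 UMIs at 3.68 to 14.9% of a rat's UMIs. Such barcodes were few in rats 2, 4 and 5 and held 0 *Ctss* UMIs in rats 4 and 5. It could thus remove little there, and the count of 6 says little on free RNA. The part that border macrophages, or RNA of microglia in the same droplets, have in the vascular level was not tested.

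In neurons the same 6 genes were called lower, where 26.6% of all genes were called lower and 32.8% higher. *C1qa*, *C1qb* and *C1qc* had log2 differences of -1.33, -1.34 and -1.34 (adjusted p = 0.000216, 0.000455 and 0.000993). *Csf1r*, *Trem2* and *Ctss* differed by -1.26, -1.26 and -1.15 (adjusted p = 0.00113, 0.0011 and 0.00793). As each type is set against the mean of the others, the raised vascular level is part of what neurons were compared with, so the 2 results are not independent. The mean *C1qa* level was 0.0659 UMIs per 10000 in neurons and 0.0702 in OPCs. The count of 6 fell to 2 with no rat block, where 8 genes were tested. The genes lost there kept folds near those above (*C1qa* -1.30, *C1qb* -1.27, *Trem2* -1.36 and *Ctss* -0.99). When single nuclei were typed from their own marker UMIs the count was also 2, and the folds shrank (*C1qa* -0.52, *C1qc* -0.69, *Ctss* -0.52 and *Trem2* -0.42). Neurons were the deepest type in 4 of the 5 rats, all but rat 1, with medians of 1303 to 9828 UMIs. In astrocytes 1 gene was called, *Csf1r*, at 0.92 ± 0.36 (SE, adjusted p = 0.0457), and 18.3% of all genes were called higher and 16.3% lower there. The *Csf1r* call was lost by 10 of 13 alternatives, with folds from 0.60 (without rat 5) to 1.87 (free RNA subtracted), such as 0.91 by DESeq2. In oligodendrocytes and OPCs 0 of the 9 genes were called in this edgeR test, with 0 and 2 at an unadjusted p under 0.05, and DESeq2 called 1 (*P2ry12*, lower in oligodendrocytes) and 0. DESeq2 called 0 in astrocytes. Of all genes, 30.2% were called higher and 28.9% lower in oligodendrocytes, and 17.4% and 17.0% in OPCs.

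**Figure D2:**
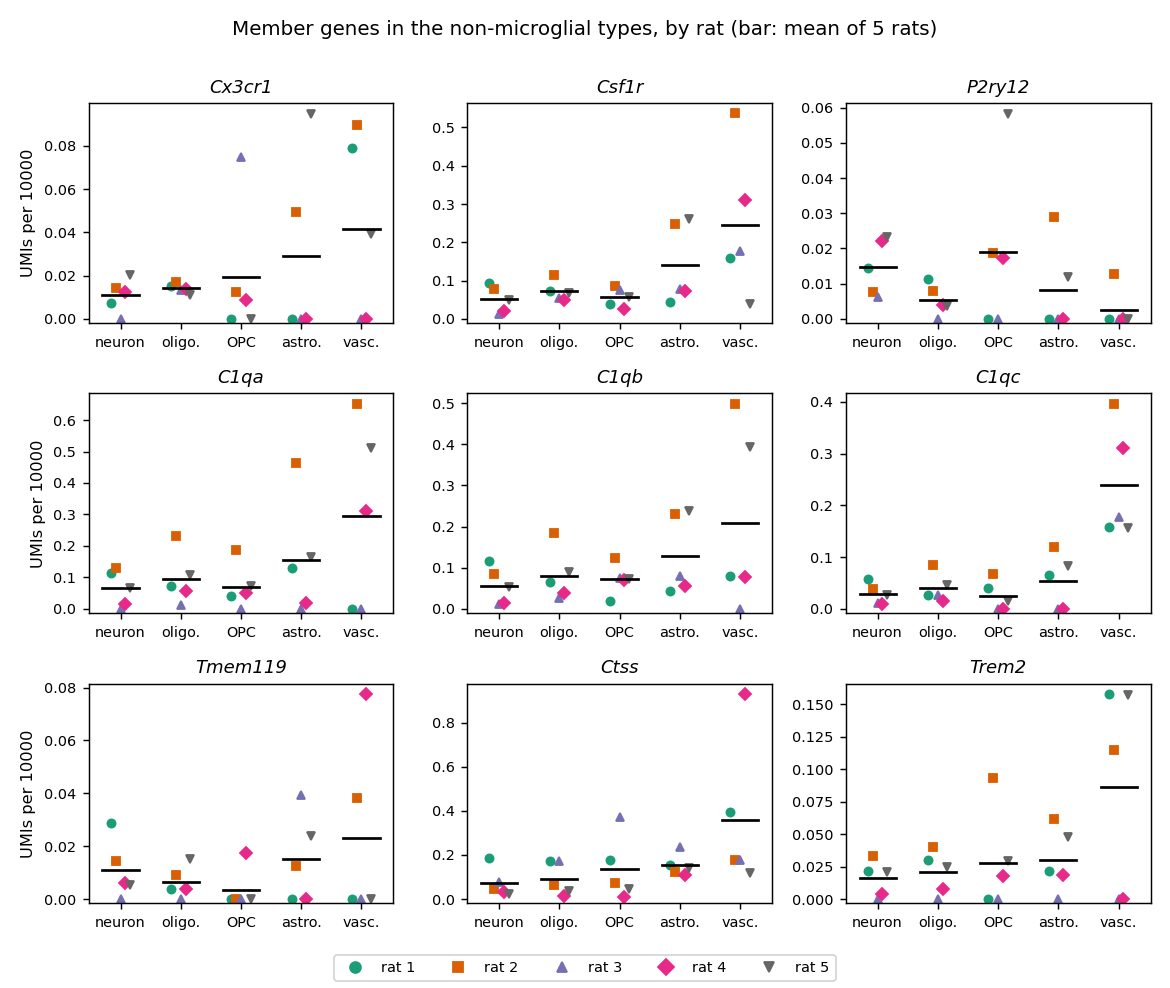
Level of each of the 9 genes in neurons, oligodendrocytes, OPCs, astrocytes and vascular nuclei as UMIs per 10000 UMIs, with 1 symbol per rat and a short line at the mean of 5 rats. The vascular mean is the highest for every gene but *P2ry12*, and the symbols of the types overlap widely, except for *C1qc*, where all 5 vascular symbols (0.157 to 0.396) lie above those of the other types.

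The next comparison set the level of each gene in nuclei against that in free RNA, the RNA of droplets without a nucleus, taken from barcodes of 10 to 99 UMIs. The C1q genes and *Trem2* were higher in free RNA than in the typed nuclei of the same rats, by a log2 fold of 1.87 ± 0.44 for *C1qa* (SE, adjusted p = 0.000133), 1.84 ± 0.47 for *C1qb* (adjusted p = 0.000417), 1.46 ± 0.54 for *C1qc* (adjusted p = 0.0179) and 2.14 ± 0.59 for *Trem2* (adjusted p = 0.00128). These were 4 of the 8 genes that passed the filter on low counts, where 20.6% of the 13709 genes tested were called higher in free RNA and 27.9% lower (edgeR quasi-likelihood test). *Csf1r* (0.89 ± 0.45), *Tmem119* (0.22 ± 0.75), *Ctss* (-0.04 ± 0.44) and *Cx3cr1* (-0.97 ± 0.68) had adjusted p of 0.0883, 0.826, 0.944 and 0.229. *P2ry12* did not pass the filter. Without rat 3 the *C1qc* fold was 0.93 (adjusted p = 0.14).

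Barcodes of 10 to 99 UMIs were few in rats 2, 4 and 5, with 99319, 56744 and 54103 UMIs against 2011081 and 1713965 in rats 1 and 3. *C1qa* gave 132, 6, 29, 4 and 4 UMIs there in rats 1 to 5 and *Cx3cr1* 12, 0, 3, 0 and 1. Barcodes of 100 to 300 UMIs can also hold small or broken nuclei. They held 14481417 and 15106245 UMIs in rats 4 and 5, where *C1qa* gave 1069 and 1471 UMIs, and 396207 UMIs in rat 2. Most droplets without a nucleus may thus lie above 99 UMIs in rats 2, 4 and 5. In rat 2, where 37436 barcodes held at least 600 UMIs, they may lie above 300. Where they lie was not tested. In barcodes of 100 to 300 UMIs, 8 of 9 genes were called higher than in typed nuclei, where 30.6% of all genes were. The order of the genes was kept in part: *C1qb* (2.51 ± 0.27), *Trem2* (2.40 ± 0.34), *C1qa* (2.28 ± 0.29) and *C1qc* (2.18 ± 0.30) had the largest log2 folds, and *Tmem119* (1.36 ± 0.33), *P2ry12* (1.26 ± 0.31), *Csf1r* (1.06 ± 0.27) and *Ctss* (0.92 ± 0.27) followed. *Cx3cr1* alone was not called, with a log2 fold of -0.01 ± 0.36 (adjusted p = 0.987).

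**Figure D3:**
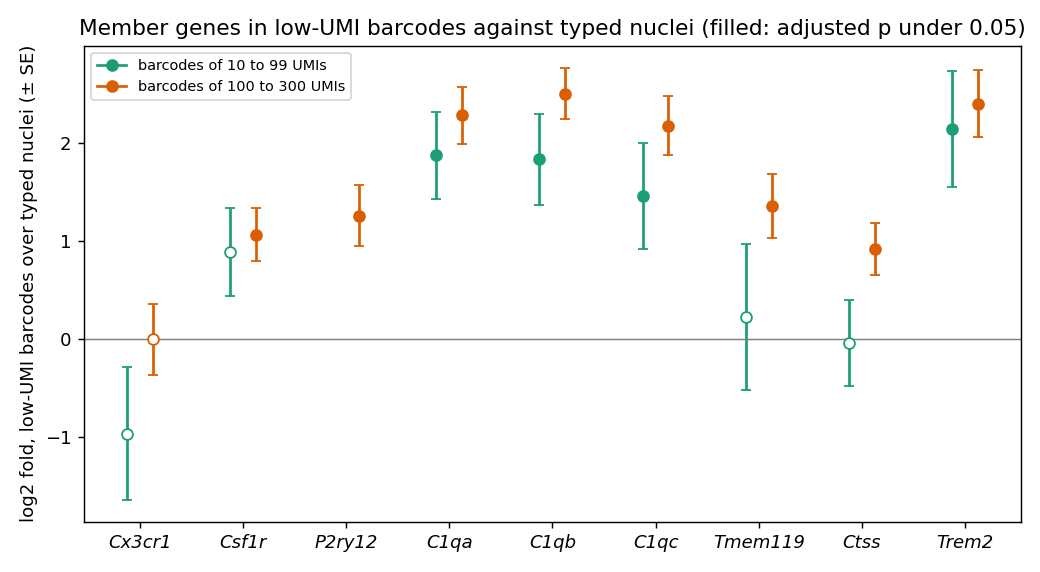
Log2 fold of each gene in low-UMI barcodes over typed nuclei with its SE, for barcodes of 10 to 99 UMIs and of 100 to 300 UMIs, 5 rats each. Filled symbols passed an adjusted p of 0.05, and the C1q genes and *Trem2* are filled in both sets, while *Cx3cr1* is open in both and *P2ry12* was tested in the second set alone.

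A ratio of 2 sets of these genes does not depend directly on how many microglia a library held. In microglia-like nuclei there were 0.779, 0.884, 0.625, 0.448 and 0.756 UMIs of the C1q genes per UMI of *Cx3cr1*, *Csf1r* and *P2ry12* in rats 1 to 5, under 1 in every rat. In all other types the ratio was 2.08, 2.9, 1.06, 1.35 and 2.06, above 1 in every rat. In the barcodes left out of the types it was 2.38, 3.36, 1.17, 1.55 and 4.12, and in barcodes of 100 to 300 UMIs 2.01, 5.78, 1.42, 2.26 and 3.4. In all 5 rats each of these 3 sets lay above the microglia-like nuclei of the same rat. The ratio in all other types exceeded that in microglia-like nuclei by 1.39 ± 0.37 on the log2 scale (SD, n = 5), and that in barcodes of 100 to 300 UMIs by 1.95 ± 0.65. Both gave p = 0.0625 when the signs of the rats' differences were permuted (exact permutation test, two-sided), the smallest p that 5 rats allow, so that no difference could pass 0.05. With the 3 rats that gave a ratio at 10 to 99 UMIs (2.31, 1.53 and 2.25 in rats 1, 3 and 5), 4 comparisons of this kind were made, and the adjusted p of the 3 with 5 rats was 0.0833. The comparison was chosen after the levels had been seen.

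**Figure D4:**
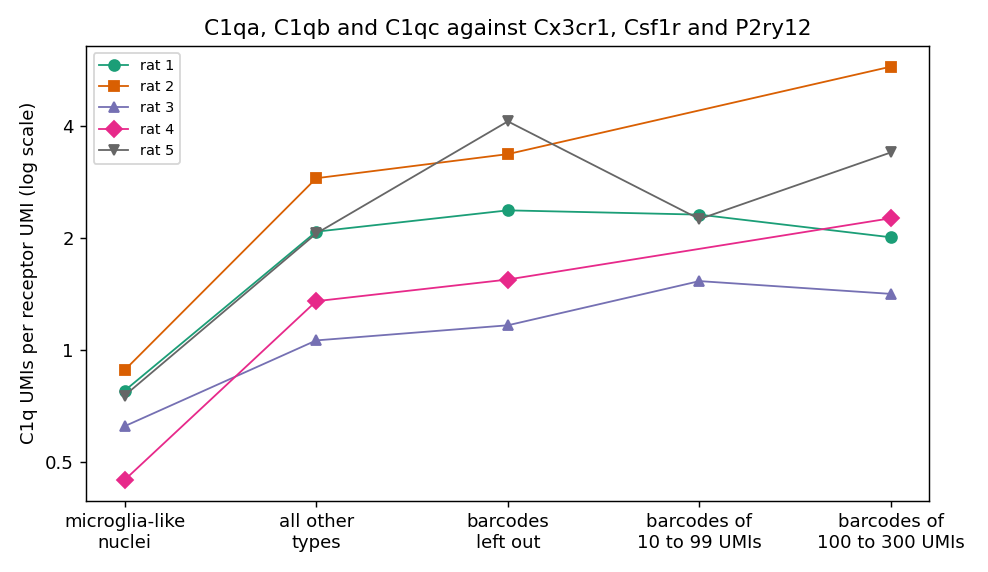
UMIs of *C1qa*, *C1qb* and *C1qc* per UMI of *Cx3cr1*, *Csf1r* and *P2ry12* (log axis) in microglia-like nuclei, all other types, barcodes left out and barcodes of 10 to 99 and 100 to 300 UMIs, with 1 line per rat. Every rat's lowest ratio is in its microglia-like nuclei, and ratios from 3 or fewer receptor UMIs (rats 2 and 4 at 10 to 99 UMIs) are not drawn.

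*Ctss* went the other way relative to C1q. There were 1.49, 0.485, 9.07, 1.77 and 0.632 *Ctss* UMIs per C1q UMI in microglia-like nuclei of rats 1 to 5, 0.912, 0.147, 2.94, 0.331 and 0.174 in all other types and 1.13, 0.106, 2.61, 0.18 and 0.121 in barcodes of 100 to 300 UMIs. Within each rat the microglial ratio was the highest of the 3, and rat 3 had the highest and rat 2 the lowest ratio in each of the 3 sets. In barcodes of 10 to 99 UMIs this order did not hold, with ratios of 0.763 in rat 1 and 0.574 in rat 3, and the other 3 rats held 0 to 3 *Ctss* UMIs there. *Ctss* made up 40.5, 7.59, 57.1, 10.1 and 7.77% of the UMIs of the 9 genes in barcodes of 100 to 300 UMIs, with the values of rats 1 and 3 several times those of the other 3.

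**Figure D5:**
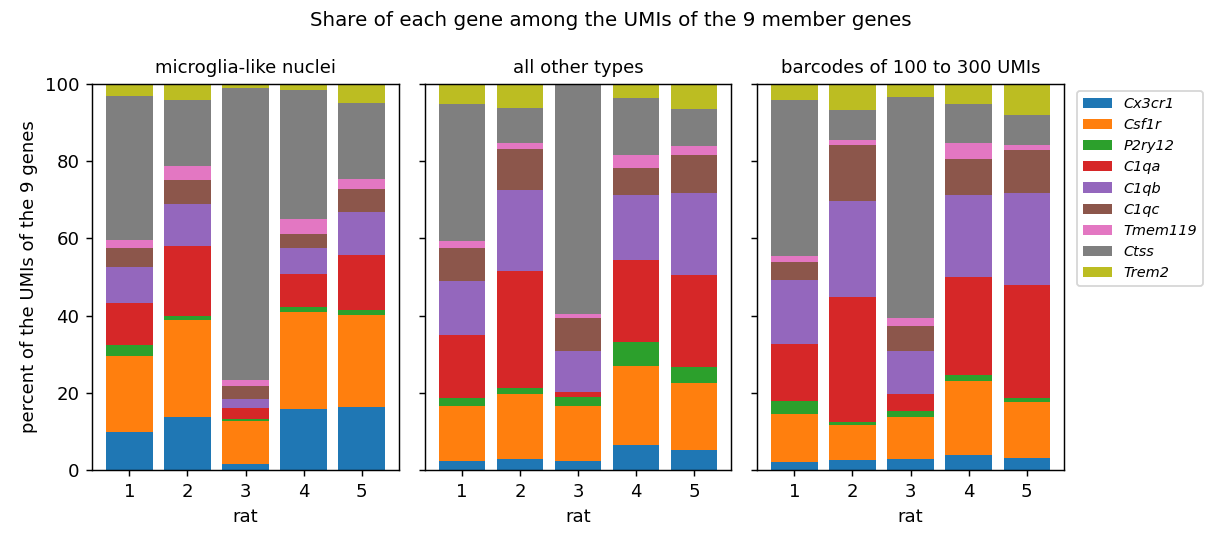
Percent of the UMIs of the 9 genes that each gene made up, for rats 1 to 5, in microglia-like nuclei, all other types and barcodes of 100 to 300 UMIs. *Ctss* is the widest band in rat 3 in all 3 panels (75.6%, 59.5% and 57.1%), and the C1q bands are wider and the *Cx3cr1* and *Csf1r* bands narrower outside microglia-like nuclei in rats 2, 4 and 5.

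The genes whose levels followed each of the 9 most closely over the 30 sums of a rat and a type are named next, by Pearson's r. *Cx3cr1* was followed by *Susd3* and *Cd300a* (Pearson's r = 0.96 and 0.95 on log2 values), *Csf1r* by *Fam169b*, *Nckap1l* and *Siglec5* (r = 0.95, 0.94 and 0.94), and *P2ry12* by *Cd37* (r = 0.96). *C1qb* was followed by *Laptm5*, *Tyrobp* and *C3* (r = 0.92, 0.91 and 0.91), and *C1qa* by *RT1-CE10*, *Laptm5* and *Fcgr2a* (r = 0.92, 0.92 and 0.91). *C1qc* was closest to *Tmem176b* (r = 0.93) and *Trem2* to *Tmem176a*, *Gpr84* and *Tyrobp* (r = 0.93, 0.92 and 0.92). *Tmem119* was closest to *Tmem156*, *Havcr2* and *Il7r* (r = 0.97, 0.97 and 0.96), and *Ctss* to *Gna15*, *Slc2a5* and *Pik3cg* (r = 0.91, 0.91 and 0.91). Sums of one rat share a library and its depth, and every microglia sum lies apart from the rest, so these values mostly describe that gap.

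Other genes of the same pathways were read from lists in the comparison of microglia-like with all other typed nuclei, where 12.1% of genes were called higher and the median log2 fold over all genes tested was -0.14. Of 16 other homeostatic genes 15 were tested and all 15 were higher, with a median log2 fold of 4.51. *Selplg* (P-selectin ligand) gave 27 UMIs in microglia-like nuclei and 0 in the other nuclei. It could pass the filter on low counts through microglia-like nuclei alone, so its call was fixed in advance. Other genes rare outside microglia share this limit in part, so the count of 15 is only a description. *P2ry6*, a UDP receptor tied to phagocytosis, had a log2 fold of 8.26 ± 0.37 (SE), adjusted p = 2.93e-15 (2.68 against 0.00678 UMIs per 10000).

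Of 25 complement genes beyond C1q, 18 were tested, 8 were higher and 2 lower in microglia-like nuclei, with a median log2 fold of 0.44. *C3*, *C5ar1*, *Itgam* and *Itgb2* were rare in the other nuclei (0.0131, 0.0031, 0.0218 and 0.0117 UMIs per 10000). They could pass the filter on low counts mainly through microglia-like nuclei, so the count of 8 is only a description. *C5ar1*, which encodes a C5a receptor, had a log2 fold of 6.63 ± 0.58 (SE), adjusted p = 1.12e-09. *C3*, on which the complement pathways converge, was higher by 4.88 ± 0.42 (SE), adjusted p = 6.68e-10 (0.41 against 0.0131 UMIs per 10000), and *Itgam*, a subunit of complement receptor 3, by 6.53 ± 0.32 (SE), adjusted p = 1.24e-14. *Csmd1*, an inhibitor of complement in the nervous system, and *Csmd2*, of the same gene family, had log2 folds of -2.21 and -1.11 (adjusted p = 6.07e-07 and 0.00013). Their levels were 0.558 against 2.22 UMIs per 10000 and 1.52 against 3.03 UMIs per 10000.

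Of 9 ligands and signalling partners 8 were tested, 4 were higher and 2 lower, with a median log2 fold of 2.50. The adaptor *Tyrobp*, partner of TREM2, was higher by 4.63 ± 0.32 (SE), adjusted p = 1.32e-11 (0.954 against 0.0407 UMIs per 10000), and the kinase *Syk* and the cytokine *Tgfb1* were higher by 6.51 and 5.97. *Syk* and *Tgfb1* were rare in the other nuclei (0.0137 and 0.017 UMIs per 10000). The filter on low counts limits the count of 4 in the same way. Both ligands of CSF1R were lower in microglia-like nuclei, *Csf1* by edgeR but not by DESeq2 (adjusted p = 0.0821). *Il34* gave 2 UMIs there, both in rat 2, and 520 in the other types (-3.02 ± 0.80 (SE), adjusted p = 0.00455). Its fold ranged from -8.28 to -2.50 over the alternatives, so its size is poorly set. *Csf1* differed by -0.88 ± 0.28 (SE), adjusted p = 0.0177 (0.237 against 0.436 UMIs per 10000). *Cx3cl1*, the ligand of CX3CR1, stood at 0.105 against 0.186 UMIs per 10000 with a log2 fold of -0.86 ± 0.40 (SE), adjusted p = 0.114, and did not pass. It was called lower by edgeR without rat 2 (-1.92, adjusted p = 0.0302) and with nuclei typed by their own markers (-1.10, adjusted p = 0.0413). Over all alternatives its fold ranged from -1.92 to -0.40.

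Of 19 genes of the lysosome and antigen presentation, all 19 were tested, 14 were higher and 0 lower by edgeR, with a median log2 fold of 1.65, and 1 was lower at an unadjusted p under 0.05 and 0 by DESeq2. *Ctsc* and *Ctsz*, proteases of the cathepsin family like *Ctss*, had the largest differences, at 5.99 and 4.96. *Ctsc*, *Ctsz* and *Cd74* were rare in the other nuclei (0.0088, 0.0286 and 0.0108 UMIs per 10000), so the filter limits the count of 14 as well. Of 15 genes known from activated microglia 8 were tested and 3 were higher, *Nlrp3*, the sensor of an inflammasome (7.24 ± 0.33 (SE), adjusted p = 3.42e-15), *Cd86*, a co-stimulatory molecule (7.18 ± 0.51 (SE), adjusted p = 2.19e-11), and *Tspo*, a mitochondrial protein used in imaging (3.72 ± 0.60 (SE), adjusted p = 2.37e-05), which the rule for naming genes did not include. The other 5 tested had log2 folds of -0.80 to 0.96 and did not pass, and 7, among them cytokine genes, were below the filter on low counts. *Nlrp3*, *Cd86* and *Tspo* were rare in the other nuclei (0.0083, 0.0016 and 0.0088 UMIs per 10000). They could pass that filter through microglia-like nuclei alone, so the count of 3 is shaped by the filter and says little on activation.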

How the data were processed

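Nuclei of 5 saline-labelled rats were analysed, 1 library each. The authors deposited raw, unfiltered UMI counts per gene and barcode. The submitters' processing notes name Cell Ranger 8.0.1, and the file headers name Cell Ranger 4. The genome build and whether intronic reads were counted are not given in the sources used here, and both bear on nuclear counts. The limits on mitochondrial share and genes are those of the study's methods, except that the upper limit on genes was applied there to SoupX-corrected counts and here to the deposited counts, and the minimum of 600 UMIs was added here. The deposited counts hold no SoupX correction or doublet removal.

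Barcodes were clustered per library (scanpy 1.11.5, leidenalg 0.10.2, 2000 variable genes, 20 components, 15 neighbours, resolution 1.5) without the 9 genes and the pathway genes. Clusters were named from markers with at least 3 raised, and clusters with mixed or weak markers and the top 5% of Scrublet scores per library, whose automatic call marked 0 or 1 barcode a library, were left out. Counts were summed per rat and type (at least 10 nuclei) and tested with edgeR 4.0.16 (filterByExpr, TMM, quasi-likelihood, the rat as a block), with Benjamini-Hochberg adjustment over all genes tested and a threshold of 0.05. Sums of a rat come from the same animal, and their deviations from the group means correlated (r = 0.254 to 0.590 for the microglia comparison, 0.0848 to 0.387 for free RNA). On simulated counts of 12250 genes for the microglia comparison, edgeR recovered 27% of changes of 1 log2 unit and 96% of changes of 2, with 2 false calls. The simulation gave all genes the same dispersion and no rat effect and changed only the better expressed genes. These shares need not hold for the real counts or for the 9 genes.

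The alternatives were DESeq2 1.42.0, its size factors, no filter, no block, each rat left out, at least 1000 UMIs, typing by own markers, doublets kept, free RNA subtracted and a minimum of 1 nucleus. The genes named are the 9 in full, from each pathway list the 2 largest rises and the 2 largest falls that passed, always *Cx3cl1*, *Csf1*, *Il34*, *Tyrobp*, *C3* and *Itgam*, and up to 3 genes with the highest Pearson's r. The genes, lists and markers were chosen with earlier results of these data known. A gene that the naming rule selects is not reported here.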

Additional observations from a re-analysis of the deposited data

Results flagged for a closer look

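Of 36 groups of 5 values examined, 3 held a value far from the rest of its group, and chance alone would set apart about 1 in 20. The share of microglia-like nuclei with a *C1qa* UMI was 4.65% in rat 3, where the next rat stood at 59.1%. The *P2ry12* level in barcodes of 100 to 300 UMIs was 0.120 UMIs per 10000 in rat 1, the highest of the 5 rats, as was its level in the microglia-like nuclei of that rat. The *Tmem119* level in the same kind of barcodes was 0.117 in rat 4, also the highest of the rats.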

How the results depend on the processing

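All 9 genes were called higher in microglia-like nuclei under all 14 alternatives, and the summed level of the 9 ranged from 29.8 to 41.2 UMIs per 10000 with 1 rat left out, against 35.5. The median share of nuclei with a UMI, 44.9%, ranged from 39.5 to 55.0% with 1 rat left out. It was 22.6% when at least 2 UMIs were asked for and 16.7% after thinning. Of 45 tests among the non-microglial types 13 passed, and 10 to 14 with 1 rat left out and 20 with no filter. With no replicate block (rats not paired in the model) 5 of 40 passed, and 6 with nuclei typed by their own markers. The vascular count was 4 to 7 with 1 rat left out, 3 with no replicate block and 1 with own markers, and the count in neurons was 5 to 6, 2 and 2. With no block 8 genes were tested in each. Typing by own markers changed the groups, such as from 2083 to 266 neurons in rat 3 and from 672 to 2248 astrocytes in rat 2. The shares of all genes called under these alternatives were not worked out, so the counts are only a description. In free RNA 3 to 5 genes were called higher with 1 rat left out, and 8 with barcodes of 100 to 300 UMIs. *Cx3cr1* was called lower there without rat 3 (-1.48, adjusted p = 0.0478 by edgeR), *Csf1r* higher without rat 4 (1.15, adjusted p = 0.0448), and *C1qc* was lost without rat 3 (0.93) and against all passing barcodes (1.24). *Tmem119*, at 0.22 in free RNA, ranged from -0.21 without rat 3 to 0.73 without rat 1 and was called at 1.36 with barcodes of 100 to 300 UMIs, and *Ctss*, at -0.04, from -0.29 without rat 1 upwards, with 0.55 with no replicate block, 0.00906, 0.22 and 0.091 without rats 3, 4 and 5, and 0.92 with barcodes of 100 to 300 UMIs. The cause of these changes was not tested. The excess of the C1q to receptor ratio was 1.31 to 1.54 on the log2 scale with 1 rat left out and 1.95 in barcodes of 100 to 300 UMIs. *Csf1* lost its call under 6 of 14 alternatives, and *Il34* under 0, while *Cx3cl1*, not called in the main test, was called under 2.

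Counts were low for 7 of the 9 genes in the microglia-like nuclei of rat 3, at 1 to 6 UMIs among 140594, while rat 1 held 15 to 89 UMIs of the same genes among 138756. Rats 2, 4 and 5 had 1495 to 2989 barcodes of 10 to 99 UMIs, against 56938 and 104417 in rats 3 and 1, and some genes had 0 UMIs in them.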

Other observations

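The pathway lists were also read in the comparison of free RNA (barcodes of 10 to 99 UMIs) with typed nuclei, where 20.6% of genes were called higher and 27.9% lower in free RNA by edgeR and the median log2 fold over all genes tested was -0.27. Of 16 lysosomal and antigen presentation genes tested, 9 were higher in free RNA and 1 lower, with a median of 1.5. *Cst3* (cystatin C, an inhibitor of cathepsins) was higher by 2.65 ± 0.38 (SE, adjusted p = 2.17e-10) and *Cd74*, the invariant chain, by 2.40 ± 0.74 (adjusted p = 0.0041), while *Ctss*, a protease that cuts the invariant chain, had a log2 fold of -0.04. *Tyrobp*, the partner of TREM2, was higher by 2.52 ± 0.53 (adjusted p = 1.99e-05) and *Apoe*, a lipoprotein that TREM2 binds, by 2.50 ± 0.39 (adjusted p = 5.81e-09), the 2 largest of 3 rises among 8 ligands and partners tested. *Cx3cl1* was the third, at 1.69 ± 0.43 (adjusted p = 0.000452), whereas its receptor gene *Cx3cr1* had a log2 fold of -0.97 that did not pass.

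Of 15 complement genes beyond C1q tested there, 3 were higher and 3 lower. *Clu*, which encodes the secreted chaperone clusterin, was higher by 2.34 ± 0.37 and *Cd59*, a membrane inhibitor of the terminal complex, by 1.66 ± 0.34, while *Csmd1* and *Csmd2* had log2 folds of -2.03 and -1.76. Of 11 other homeostatic genes tested, *Aif1*, which encodes the microglial stain IBA1, was the 1 called higher (2.37 ± 0.52) and *Tgfbr2*, a TGF-beta receptor gene, the 1 called lower (-2.52 ± 0.53). Of 6 activation genes tested 3 were higher, led by *Spp1* at 2.99 ± 0.43. Most of these genes are also used by neurons, other glia or vascular cells, and the cell type that the free RNA came from was not tested.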
